A study of Homo sapiens with 33 samples.

Results

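FOXL2 induction was examined at day 10 of a gonadal differentiation in 6 RNA-seq libraries of the 33 in the series. They were chosen by their labels alone, as the 3 induced (IND) and 3 uninduced control (CTRL) libraries of that day. All cells were H9-DDdCas9VP192-FOXL2 clone 24, a single clone of H9, a line of human embryonic stem cells. The clone carries a doxycycline-inducible dead Cas9 fused to the activator VP192, a destabilising domain that trimethoprim stabilises, and a pair of guide RNAs directed at the FOXL2 promoter. All wells followed the same 14-day protocol, from pluripotent cells through intermediate mesoderm to early gonadal cells. IND wells received doxycycline and trimethoprim (DOX and TMP) from day 4, and CTRL wells received neither, so an effect of DOX and TMP and an effect of FOXL2 cannot be told apart here. The 3 libraries of a group were technical replicates (wells) of 1 differentiation, so every p-value below measures the spread between wells only. In these bulk samples, fewer cells of a type and less RNA per cell cannot be told apart.

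FOXL2 is a forkhead transcription factor that marks the pre-granulosa cells of the developing ovary and maintains granulosa cell identity in the adult. The gonadal soma arises from the coelomic epithelium, a WT1- and GATA4-positive layer over the intermediate mesoderm. Its cells pass through a bipotential stage and an early supporting gonadal cell (ESGC) stage before they become granulosa or Sertoli cells. CRISPR activation recruits an activator to the endogenous promoter, so the transcript measured is the cell's own FOXL2. In the CTRL wells the cells had left pluripotency, with POU5F1 at 0.305, 0.0462 and 0.101 CPM (counts per 1000000 counts of the library, scaled by TMM). LIN28A, an RNA-binding protein of embryonic cells, was still at 231, 219 and 279.9 CPM. WT1 and GATA4 were present, while NR5A1, the nuclear receptor that marks the bipotential gonad, did not pass the filter on low counts.

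The library of IND replicate 2 stood apart from the other 5, so counts are given with and without it, and each gene said to rise or fall with all 6 libraries also did so without it. It held 23940837 counts against 43395080 to 49562327, and 19254 genes with at least 1 count against 27887 to 28848. At an equal number of counts the other 5 libraries would still have held 26324 to 27074 genes. A total of 192 genes were at 0 in IND replicate 2 although each of the other 5 libraries had at least 1 CPM of them, and no other library had such a gene. Mitochondrially encoded transcripts took 0.691% of its counts against 2.495 to 3.256% elsewhere. The summed pluripotency genes reached 2320 CPM in IND replicate 2 against 608 to 804 CPM, and those of the IGF axis 6914 CPM against 2967 to 3715 CPM. The summed collagen chains reached 77535 CPM there against 25026 to 27750 CPM, with COL3A1 at 10298, 11058 and 9761 CPM in CTRL and 12341, 29197 and 11326 CPM in IND replicates 1 to 3. Its correlation with the other IND libraries on the log2(CPM + 1) scale was 0.948 and 0.949, where other replicate pairs of a group reached 0.996 to 0.997 and pairs across groups 0.980 to 0.988.

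FOXL2 was induced in every IND well. FOXL2 (ENSG00000183770, chromosome 3, 138944224 to 138947140, minus strand) was at 0.0611, 0.0231 and 0.0202 CPM in CTRL replicates 1 to 3, from 3, 1 and 1 counts, and at 259.6, 297 and 239 CPM in IND replicates 1 to 3. The ratio of the summed counts was 7337 (95% exact interval 3144 to 22599, counting error only), and the adjusted p was 3.15e-05 (edgeR quasi-likelihood test with Benjamini-Hochberg adjustment, as for every adjusted p below). All 3 IND wells were high and near one another, with IND replicate 2 the highest. In deposited FPKM, which accounts for gene length, FOXL2 averaged 89.4 in IND and 0.0118 in CTRL.

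Both neighbours of FOXL2 were induced with it. FOXL2NB, the divergent neighbour on the plus strand, went from 0.0204, 0 and 0.121 CPM in CTRL to 54.9, 51.8 and 47.1 CPM in IND, a log2 fold change of 9.95 ± 0.554 (standard error, as for every ± after a log2 fold change; adjusted p = 0.00178). LINC01391, a long noncoding RNA downstream on the same strand as FOXL2, had no count in any CTRL library and 33.8, 34.9 and 30.9 CPM in IND, at least 474-fold higher against a floor of 3 counts in a library (adjusted p = 0.00173). The libraries were non-directional, so reads of adjoining transcripts on opposite strands were not separated. The promoter targeted by the guides is shown because it faces both ways. It is given as the 250 bases before the RefSeq start of FOXL2, read 5′ to 3′ on the FOXL2 strand (GRCh38.p14, chr3:138947138-138947387, minus strand). The 79 bases between the starts of FOXL2 and FOXL2NB are in capitals.
FOXL2 promoter: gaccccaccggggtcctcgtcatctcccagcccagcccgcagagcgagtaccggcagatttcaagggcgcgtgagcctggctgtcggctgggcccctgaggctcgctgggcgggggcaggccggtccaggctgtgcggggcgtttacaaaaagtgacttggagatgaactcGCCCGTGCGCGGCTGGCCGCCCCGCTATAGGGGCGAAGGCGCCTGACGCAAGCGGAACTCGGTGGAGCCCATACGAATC
Both genes read outward from this stretch and both rose. LINC01391 starts beyond the other end of FOXL2, at position 138944020.

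Across the transcriptome, 404 of 19858 genes tested passed an adjusted p of 0.05 with all 6 libraries, which is 2.03% of them. Of these, 170 (0.856%) were higher in IND and 234 (1.18%) were lower, and 324 differed by a log2 fold change of at least 1. The median absolute log2 fold change of the 404 was 1.46, while the median over all genes was -0.01. Without IND replicate 2, 3768 of 20650 genes passed (18.2%), 1804 higher (8.74%) and 1964 lower (9.51%). All 404 genes were among them with the same direction, and the other 3364 passed only without that library. The count also fell when another library was left out while IND replicate 2 was kept, to 12, 11 and 52 for CTRL replicates 1, 2 and 3, and to 72 and 55 for IND replicates 1 and 3. With all 6 libraries the IND and CTRL libraries did not overlap, with IND higher, in 14.8% of the genes tested and, with IND lower, in 16.2%.

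After the locus itself, SFRP4, RARRES3 and C7 were among the largest rises. SFRP4, a secreted modulator of WNT signalling, had 3, 0 and 3 counts in CTRL and 5.12, 23.7 and 9.14 CPM in IND, a ratio of summed counts of 243 (interval 111 to 664). Its 3 IND libraries spread widely, and without IND replicate 2 the ratio was 169. C7, a terminal component of complement, went from 1.22, 1.02 and 1.11 CPM to 31.7, 34.3 and 36.2 CPM with hardly any spread (log2 fold change 4.93 ± 0.168, adjusted p = 0.000201). RARRES3, a retinoid-responsive acyltransferase, was at 0.183, 0.139 and 0.0808 CPM in CTRL and 6.54, 8.14 and 4.20 CPM in IND (log2 fold change 5.52 ± 0.456). PSMB8, a catalytic subunit of the immunoproteasome, rose from 0.244, 0.323 and 0.485 CPM to 5.31, 6.502 and 5.30 CPM (log2 fold change 4.01 ± 0.354).

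FIBIN and ANGPTL6 were also among the 15 largest rises. FIBIN, a secreted factor named for fin bud initiation, was at 3.03, 2.22 and 3.40 CPM in CTRL and 39.0, 44.5 and 39.6 CPM in IND (log2 fold change 3.83 ± 0.205, adjusted p = 0.00178). ANGPTL6, an angiopoietin-like secreted protein, was at 1.95, 2.19 and 1.80 CPM and 27.0, 43.7 and 20.1 CPM (log2 fold change 3.93 ± 0.331). The largest rises were named only where IND and CTRL did not overlap, so the lack of overlap adds no support here. GPAT3, an enzyme of glycerolipid synthesis, rose by a log2 fold change of 4.80 ± 0.703, and SPTSSB, a small subunit of serine palmitoyltransferase, by 3.33 ± 0.445. MYO7B, a myosin of microvilli, rose by 4.47 ± 0.511, CRHBP, which binds corticotropin-releasing hormone, by 3.34 ± 0.363, and GCGR, the glucagon receptor, by 3.60 ± 0.604.

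**Figure D1:**
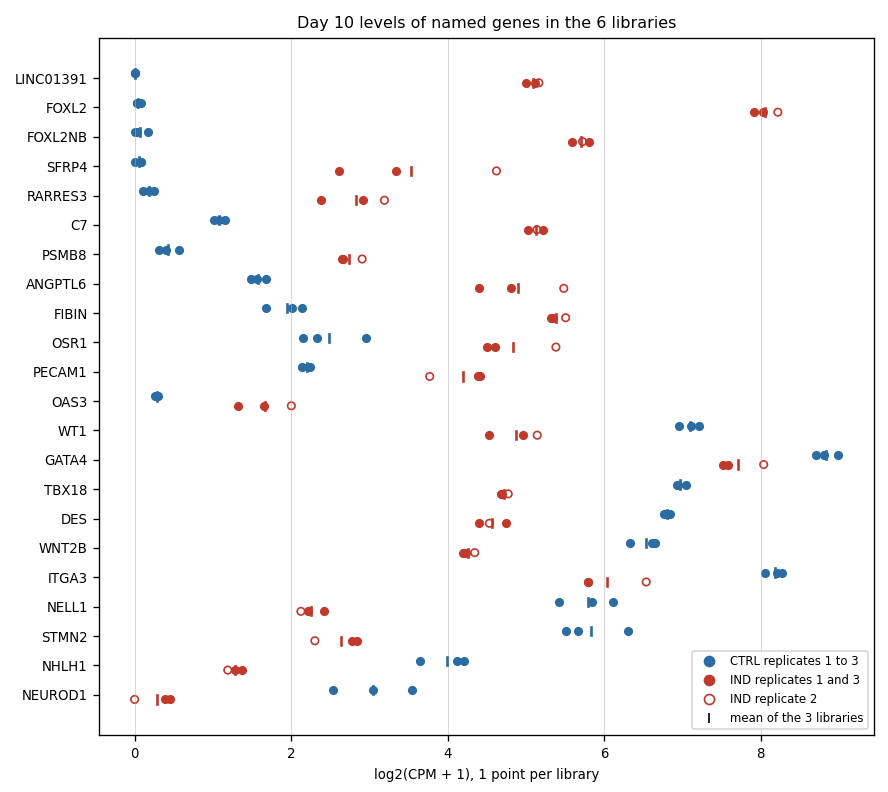
Levels of 22 named genes in each of the 6 libraries on a log2(CPM + 1) axis, with IND replicate 2 as an open circle and a bar at each group's mean. IND and CTRL libraries do not overlap in any of them. For genes named as the largest or most abundant changes this was a condition of naming.

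The 15 largest falls included proneural factors and genes of neurons, which are taken up as lists further on. NELL1, a secreted protein with epidermal growth factor-like repeats, was at 56.4, 68.1 and 41.9 CPM in CTRL and 4.35, 3.36 and 3.64 CPM in IND (log2 fold change -3.87 ± 0.235, adjusted p = 0.00267). STMN2, a microtubule regulator of growing axons, fell from 49.9, 77.8 and 44.7 CPM to 6.16, 3.94 and 5.83 CPM (-3.42 ± 0.293). NEUROD1, a proneural basic helix-loop-helix factor, fell from 7.25, 10.6 and 4.81 CPM to 0.312, 0 and 0.372 CPM (-4.89 ± 0.776, adjusted p = 0.0343). The CTRL libraries of these genes differed among themselves, with CTRL replicate 2 the highest in each. Lack of overlap with IND was a condition for naming the largest falls. NHLH1 (-3.38 ± 0.242) and NEUROG1 (-2.85 ± 0.237) are of the same factor class, ELAVL3 (-2.52 ± 0.257) is an RNA-binding protein of neurons, and CNTN2 (-2.85 ± 0.298) an axonal adhesion molecule. GRIA4 (-2.53 ± 0.340) encodes an AMPA receptor subunit, KCNJ3 (-2.59 ± 0.424) an inward rectifier potassium channel and SLC6A13 (-2.59 ± 0.247) a GABA transporter. PPP1R17 (-3.75 ± 0.447), ISM1 (-3.22 ± 0.488), PRSS56 (-2.92 ± 0.505), XKR7 (-2.61 ± 0.323) and ARHGAP22 (-2.57 ± 0.360) made up the rest of the 15 largest falls. ARHGAP22, a GTPase-activating protein for Rac, was at 155, 172 and 132 CPM in CTRL and 19.3, 41.3 and 17.0 CPM in IND.

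Of the genes that rose, the 10 with the highest mean FPKM included FOXL2 and FIBIN, given above, and 8 others. FZD7, a WNT receptor, was at 220.4, 204 and 231 CPM in CTRL and 427, 632 and 417 CPM in IND (log2 fold change 1.17 ± 0.184, adjusted p = 0.0339). ADAMTS1, a protease that cleaves proteoglycans, was at 169, 152 and 158 CPM and 411, 499 and 398 CPM (1.45 ± 0.127). GPC4, a cell-surface heparan sulfate proteoglycan, was at 51.3, 42.6 and 59.7 CPM and 159, 179 and 203 CPM (1.82 ± 0.165). Genes of this ranking, too, were named only where the groups did not overlap. In FZD7, where IND replicate 2 was the highest, the log2 fold change without it was 0.95. NPR3, the clearance receptor of natriuretic peptides, rose by 1.33 ± 0.102, the membrane protein STOM by 1.57 ± 0.147, and the protease inhibitor SERPINE2 by 1.21 ± 0.152. VTN, the adhesive glycoprotein vitronectin, rose by 1.12 ± 0.184, and SMOC1, a matricellular calcium-binding protein, by 1.08 ± 0.163.

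Of the genes that fell, those with the highest mean FPKM were led by STK26 and PODXL. STK26, a kinase of the germinal centre kinase family, was at 983, 1049 and 1029 CPM in CTRL and 346, 169.9 and 349 CPM in IND (log2 fold change -1.82 ± 0.279, adjusted p = 0.0306). PODXL, a sialomucin of the apical surface of podocytes and of coelomic epithelium, was at 1829, 1789 and 1834 CPM and 863, 591 and 758 CPM (-1.30 ± 0.157). SLC7A5, a transporter of large neutral amino acids, was at 587, 505 and 549.9 CPM and 270.5, 269 and 269.6 CPM (-1.02 ± 0.104), with nearly the same value in the 3 IND wells. TNC, the matrix protein tenascin C (-1.38 ± 0.143), NPNT, an integrin ligand of kidney development (-1.36 ± 0.216), and TGFBI, a matrix protein induced by TGF-beta (-1.25 ± 0.159), fell too. So did MYL7, the atrial myosin light chain (-1.11 ± 0.138), TAGLN2, an actin-binding protein (-1.06 ± 0.132), RAP2C, a small GTPase (-1.01 ± 0.103), and GATA4, taken up next.

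Some coelomic epithelial genes fell in IND. The list includes GATA4, LHX9 and UPK3B, which the study itself examined in these cells, so its direction is no independent evidence. Of 17 list members tested, 5 fell and none rose with all 6 libraries (29.4% against 1.18% of all genes), and 9 fell and 1 rose without IND replicate 2 (52.9% against 9.51%). The log2 fold change was positive in 7 of the 17 with all 6 libraries and in 5 of 17 without IND replicate 2. The median log2 fold change was -0.46 with all 6 libraries and -0.85 without IND replicate 2, against -0.01 over all genes tested with all 6. WT1, a zinc finger factor required for gonad and kidney formation, fell from 137, 147 and 124 CPM to 30.1, 34.4 and 22.0 CPM (log2 fold change -2.24 ± 0.187, adjusted p = 0.00673). GATA4, needed for thickening of the coelomic epithelium, fell from 509, 447 and 418 CPM to 182, 262 and 191 CPM (-1.11 ± 0.171, adjusted p = 0.0313). Every IND library of both genes lay below every CTRL library, as in 16.2% of all genes tested. For GATA4, one of the most abundant falls, this was a condition of naming, so it adds no support. WT1 overlaps an antisense gene, whose reads were not separated from its own.

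UPK3B, a uroplakin of the mesothelium (-1.18 ± 0.203), and BNC1, a zinc finger factor of mesothelium (-0.94 ± 0.132), fell, as did PODXL above. LHX9, a LIM homeobox factor of the genital ridge, was at 1.99, 1.80 and 2.26 CPM in CTRL and 0.271, 0 and 0.248 CPM in IND, and passed only without IND replicate 2 (log2 fold change -2.95 ± 0.325, adjusted p = 2.91e-05). CALB2, the mesothelial calcium-binding protein calretinin, was at 14.1, 11.5 and 15.2 CPM and 3.14, 0.310 and 2.42 CPM, and likewise passed only without that library (-2.29 ± 0.174). LRRN4 (-1.09 ± 0.0857) and LHX2 (-1.05 ± 0.124) were the other 2 that fell only in the 5-library comparison, and in LHX2 the level of IND replicate 2 was above CTRL (40.2, 38.4 and 44.2 CPM in CTRL, 16.7, 49.98 and 22.8 CPM in IND). TCF21, a factor of coelomic and gonadal mesenchyme, went the other way without IND replicate 2 (0.65 ± 0.105). EMX2, a homeobox factor of the urogenital ridge, was under 1 CPM in every library but IND replicate 2 and IND replicate 3 and did not pass in either comparison (adjusted p = 0.546 and 0.662).

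Of the 8 genes of the ESGC stage, 1 rose and none fell with all 6 libraries (12.5% against 0.856% of all genes). The list includes LGR5, TSPAN8, OSR1 and TAC1, which the study itself examined in these cells, so its direction is no independent evidence. OSR1, a zinc finger factor of intermediate mesoderm and ESGCs, rose from 3.46, 4.04 and 6.75 CPM to 21.6, 40.7 and 23.3 CPM (log2 fold change 2.58 ± 0.366, adjusted p = 0.0243). Without IND replicate 2, 7 of 8 rose and none fell (87.5% against 8.74%), and the list's median log2 fold change was 1.37 (1.77 with all 6 libraries). LGR5, a receptor for R-spondins, was at 1.71, 1.32 and 2.41 CPM in CTRL and 3.81, 9.33 and 4.37 CPM in IND (1.17 ± 0.243 and adjusted p = 0.00441 without IND replicate 2). In LGR5, as in IRX3 and IRX5, IND replicate 2 was the highest of the 3 IND libraries. All IND libraries of these genes lay above CTRL, as in 14.8% of all genes tested. IRX3 was at 29.9, 28.4 and 29.0 CPM and 51.1, 115 and 47.4 CPM (0.76 ± 0.0757 without IND replicate 2), and its Iroquois homologue IRX5 differed by 0.66 ± 0.192.

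TAC1, the precursor of substance P, was at 0.204, 0.300 and 0.162 CPM in CTRL and 1.08, 0.929 and 1.16 CPM in IND (2.33 ± 0.414 and adjusted p = 0.00142 without IND replicate 2). TSPAN8, a tetraspanin, stayed close to 1 CPM or below throughout and differed by 2.64 ± 0.839 without that library (adjusted p = 0.0442). BMP2, a bone morphogenetic protein, was at 7.06, 4.32 and 8.45 CPM and 16.3, 32.5 and 23.0 CPM, with an adjusted p of 0.0555 with all 6 libraries and 0.0148 without IND replicate 2. KITLG, the ligand of the receptor KIT on germ cells, was at 29.7, 26.1 and 43.5 CPM and 59.0, 46.2 and 69.7 CPM, and did not pass in either comparison (adjusted p = 0.173 and 0.0739).

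Of the 14 genes of the transitional stage and bipotential gonad, 1 rose with all 6 libraries (7.14% against 0.856% of all genes). Without IND replicate 2, 5 rose and 4 fell (35.7% and 28.6% against 8.74% and 9.51%). NR2F1, an orphan nuclear receptor of mesenchyme, rose from 115, 114 and 109 CPM to 198, 193 and 195 CPM (0.79 ± 0.0919, adjusted p = 0.0137), with nearly the same level in the 3 IND wells. Without IND replicate 2, GATA2, a zinc finger factor (-0.82 ± 0.175), and LHX1, a LIM homeobox factor of the nephric duct (-0.88 ± 0.197), fell. WNT6 had no count in any IND library and 0.224, 0.231 and 0.283 CPM in CTRL, at least 3.95-fold lower without IND replicate 2 (adjusted p = 0.00641) and at least 1.86-fold lower with it (adjusted p = 0.121), where the call was lost.

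**Figure D2:**
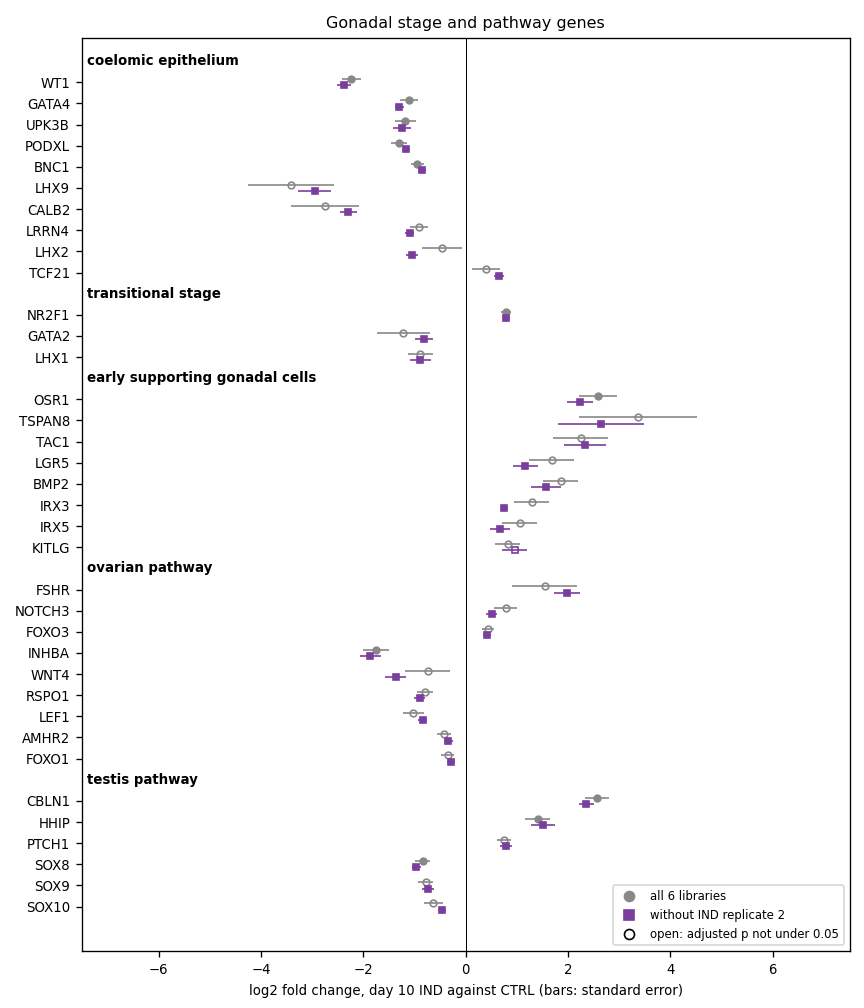
Log2 fold changes of IND against CTRL at day 10, with standard errors, for named genes of the coelomic epithelium, transitional stage, ESGC, ovarian and testis lists, with all 6 libraries (circles) and without IND replicate 2 (squares). Filled symbols passed an adjusted p of 0.05. The ESGC genes lie right of 0, and of the 10 coelomic epithelial genes plotted TCF21 alone lies right of it. These 10 are a selection. Of the 17 tested, 7 had a positive log2 fold change with all 6 libraries and 5 without IND replicate 2.

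Genes of the ovarian pathway were called in both directions. With all 6 libraries 1 of 24 tested fell (4.17% against 1.18% of all genes) and none rose. In the comparison without IND replicate 2, 4 of 26 rose (15.4% against 8.74%) and 6 fell (23.1% against 9.51%), with a median log2 fold change of -0.02. INHBA, the activin beta A subunit, fell from 8.69, 8.06 and 11.5 CPM to 2.23, 3.23 and 2.96 CPM (-1.75 ± 0.249, adjusted p = 0.0236). Genes that fell only without IND replicate 2 were RSPO1 (-0.90 ± 0.104) and WNT4 (-1.36 ± 0.204), secreted activators of the canonical ovarian pathway, and LEF1 (-0.84 ± 0.0893), a nuclear effector of WNT. RSPO1 was at 44.2, 39.8 and 35.2 CPM in CTRL and 22.5, 26.1 and 20.1 CPM in IND, while WNT4 was at 4.11, 3.74 and 4.33 CPM and 1.69, 4.20 and 1.47 CPM, so that IND replicate 2 lay at the CTRL level for WNT4 but not for RSPO1. AMHR2, the receptor of anti-Müllerian hormone, differed by -0.34 ± 0.0917, and FOXO1, a forkhead factor of granulosa cells, by -0.29 ± 0.0848.

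FSHR, the receptor of follicle-stimulating hormone on granulosa cells, was higher in 2 of the 3 IND wells. It was at 1.42, 1.08 and 0.728 CPM in CTRL and 4.29, 0.840 and 4.22 CPM in IND, with a log2 fold change of 1.97 ± 0.257 and an adjusted p of 0.000122 without IND replicate 2 and an adjusted p of 0.332 with it. NOTCH3, a Notch receptor, rose by 0.50 ± 0.103 and FOXO3, a forkhead factor of follicles, by 0.42 ± 0.0759 without that library. CYP19A1, the aromatase that makes oestrogen, did not pass the filter with all 6 libraries, with 0.142, 0.416 and 0.243 CPM in CTRL and 0.0625, 0 and 0.124 CPM in IND.

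Of the testis pathway, 2 of 16 genes rose and 2 fell with all 6 libraries (12.5% each, against 0.856% and 1.18% of all genes), and 4 of 17 rose and 6 fell without IND replicate 2 (23.5% and 35.3% against 8.74% and 9.51%). CBLN1, a secreted cerebellin of early Sertoli cells, rose from 3.03, 2.56 and 2.38 CPM to 14.4, 19.9 and 12.95 CPM (2.56 ± 0.236, adjusted p = 0.00763). HHIP, a Hedgehog-binding target of the Hedgehog pathway, rose from 17.1, 11.7 and 20.7 CPM to 43.1, 37.1 and 50.9 CPM (1.40 ± 0.239, adjusted p = 0.0418). SOX8, a Sertoli cell factor related to SOX9, fell from 45.2, 44.6 and 42.3 CPM to 24.0, 28.8 and 21.1 CPM (-0.84 ± 0.149, adjusted p = 0.0466), and GATA4, on this list too, fell as given above. SOX9, the switch of testis differentiation, was at 16.4, 14.96 and 16.8 CPM and 9.04, 8.58 and 10.3 CPM, and passed only without IND replicate 2 (-0.74 ± 0.116). SOX10, its homologue of the neural crest, also fell there (-0.46 ± 0.0752). AMH, the hormone of Sertoli cells, was at 15.7, 15.6 and 14.0 CPM in CTRL and 17.2, 42.5 and 15.02 CPM in IND and did not pass (adjusted p = 0.446, and 0.66 without IND replicate 2).

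Of 12 steroid hormone synthesis genes tested, AKR1C1, an aldo-keto reductase that inactivates progesterone, rose (2.01, 2.82 and 2.49 CPM in CTRL and 7.41, 9.02 and 5.44 CPM in IND, log2 fold change 1.58 ± 0.274). It was 1 of 12 with all 6 libraries (8.33% against 0.856% of all genes) and 1 of 13 without IND replicate 2 (7.69% against 8.74%). No other passed, with or without IND replicate 2, and STAR, which carries cholesterol into mitochondria, was at 9.10, 8.79 and 7.24 CPM and 6.68, 1.86 and 3.95 CPM. Of 18 genes of the intermediate mesoderm and nephron progenitors, OSR1 rose and WT1 fell (5.56% each against 0.856% and 1.18% of all genes). Without IND replicate 2, 4 rose and 3 fell (22.2% and 16.7% against 8.74% and 9.51%).

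Of the proneural transcription factors, 32 of 34 tested had a negative log2 fold change. Of the 34 tested, 8 fell and none rose with all 6 libraries (23.5% against 1.18% of all genes), and 24 of 35 fell and 1 rose without IND replicate 2 (68.6% against 9.51%). The median log2 fold change was -1.65 and -1.70. NHLH1 was at 16.3, 17.5 and 11.5 CPM in CTRL and 1.44, 1.28 and 1.59 CPM in IND, and NEUROG1, a determinant of sensory neurons, at 13.6, 18.2 and 11.9 CPM and 2.27, 1.95 and 1.84 CPM. Both had 3 IND libraries within 1 CPM of one another and far below CTRL. PRDM12 (-2.44 ± 0.255), a determinant of pain-sensing neurons, INSM1 (-2.32 ± 0.294), NEUROD4 (-2.10 ± 0.264), TLX3 (-2.29 ± 0.336) and TLX2 (-1.73 ± 0.237) also fell. POU4F1, a factor of sensory neurons, was at 18.0, 22.4 and 12.0 CPM and 1.17, 0 and 0.993 CPM and passed only without IND replicate 2 (-4.01 ± 0.312). ISL1, a LIM homeobox factor of motor and sensory neurons and of several mesodermal tissues, was the 1 member higher there (1.37 ± 0.191).

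Structural and synaptic genes of neurons gave fewer rises than falls. Of 56 tested, 14 fell and 1 rose with all 6 libraries (25.0% lower against 1.18% of all genes), and 35 fell and 5 rose without IND replicate 2 (62.5% lower against 9.51%), with median log2 fold changes of -1.11 and -0.98. L1CAM, an adhesion molecule of axons, fell from 68.5, 62.0 and 55.3 CPM to 19.4, 15.9 and 13.1 CPM (-1.94 ± 0.182, adjusted p = 0.00808). NEFM, a neurofilament, fell from 91.3, 108 and 101 CPM to 38.6, 26.4 and 38.3 CPM (-1.53 ± 0.177). CHGA (-1.61 ± 0.174) and SYP (-2.0 ± 0.283), proteins of secretory and synaptic vesicles, fell as well. CNTN1, a contactin like CNTN2, was the member that rose, from 6.31, 6.39 and 5.80 CPM to 22.6, 19.3 and 30.5 CPM (1.97 ± 0.207, adjusted p = 0.0106).

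Of 31 genes of the neural crest and glia, 2 fell with all 6 libraries (6.45% against 1.18% of all genes). Without IND replicate 2, 13 fell and 3 rose (41.9% and 9.68% against 9.51% and 8.74%). ZIC1, a zinc finger factor of the neural plate border, fell from 18.4, 13.2 and 19.9 CPM to 6.89, 7.61 and 5.90 CPM (-1.34 ± 0.212), and SOX8 is also on this list. PAX3, a paired box factor of neural crest and somites, was at 30.3, 29.7 and 27.9 CPM and 15.3, 3.63 and 14.0 CPM and passed only without IND replicate 2 (-0.999 ± 0.0932). Of 68 axon guidance genes, 5 fell and none rose with all 6 libraries (7.35% lower against 1.18%). Among the 5 were the ephrin receptors EPHA3 (-2.19 ± 0.271) and EPHB2 (-1.23 ± 0.133) and the plexin PLXNA4 (-1.45 ± 0.258). Without IND replicate 2, 16 fell and 11 rose (23.5% and 16.2% against 9.51% and 8.74%), with a median of 0.00. Of 62 ion channel genes, 7 fell and none rose with all 6 libraries (11.3% lower against 1.18%). Among the 7 were HCN4 (-2.24 ± 0.194), the pacemaker channel, and KCNMA1 (-2.14 ± 0.155), a calcium-activated potassium channel. In the comparison without IND replicate 2, 16 fell and 12 rose (25.8% and 19.4% against 9.51% and 8.74%). HCN4 was at 107, 89.3 and 91.9 CPM in CTRL and 18.1, 25.9 and 17.1 CPM in IND.

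Of 24 endothelial genes tested, 21 had a positive log2 fold change. Of the 24, 9 rose and none fell with all 6 libraries (37.5% against 0.856% of all genes), and 19 rose and 1 fell without IND replicate 2 (79.2% against 8.74%). The median log2 fold change was 1.56 and 1.72, and the summed level of the list was 248 to 262 CPM in CTRL and 429 to 464 CPM in IND. That sum includes SOX17, also a factor of endoderm, which was far highest in IND replicate 2 (given below). The sum therefore does not show where IND replicate 2 stood in the other members. PECAM1, the adhesion molecule CD31 of endothelial junctions, rose from 3.40, 3.72 and 3.66 CPM to 20.3, 12.6 and 20.01 CPM (2.30 ± 0.232, adjusted p = 0.00994). LMO2, a transcriptional partner in haemangioblasts, rose from 1.59, 1.96 and 1.86 CPM to 6.81, 11.5 and 6.66 CPM (2.20 ± 0.295). ESAM, an endothelial adhesion molecule, rose from 2.26, 2.89 and 2.24 CPM to 12.9, 6.41 and 11.9 CPM (2.08 ± 0.315). In PECAM1 and ESAM the level of IND replicate 2 was the lowest of the 3 IND wells, in LMO2 the highest. No IND library overlapped CTRL in them, as in 14.8% of all genes tested with IND higher.

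The other 6 were CD34 (1.76 ± 0.278), a sialomucin of endothelium and blood progenitors, the ETS factor FLI1 (1.63 ± 0.284), the SOX factors SOX18 (1.94 ± 0.269) and SOX7 (2.02 ± 0.312), and the receptors ROBO4 (1.94 ± 0.311) and TIE1 (1.40 ± 0.172). NOTCH4 (1.75 ± 0.198) and ACVRL1 (1.93 ± 0.287), receptors used by endothelium and counted here under Notch and TGF-beta signalling, rose too. CDH5, the cadherin of endothelial junctions, was at 9.04, 8.77 and 9.14 CPM in CTRL and 33.7, 13.6 and 31.4 CPM in IND, with an adjusted p of 0.0848 with all 6 libraries and 4.89e-08 without IND replicate 2. TEK, the angiopoietin receptor, was at 8.02, 6.62 and 5.94 CPM and 14.2, 3.67 and 14.999 CPM, so that IND replicate 2 alone lay below CTRL. FLT1, a receptor of VEGF, was the 1 member lower without IND replicate 2 (-0.45 ± 0.0924, 33.2, 28.5 and 32.5 CPM in CTRL and 23.8, 25.5 and 22.3 CPM in IND). Of 18 markers of blood and immune cells, 3 were tested and none passed, and the list summed to 1.40 to 7.03 CPM in the 6 libraries.

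Of 30 muscle genes tested, 3 fell and none rose with all 6 libraries (10.0% against 1.18% of all genes), and 9 fell (30.0% against 9.51%) and 3 rose (10.0% against 8.74%) without IND replicate 2. DES, the muscle intermediate filament desmin, fell from 113, 110.2 and 108 CPM to 25.9, 22.2 and 20.2 CPM (-2.28 ± 0.132, adjusted p = 0.00178). HCN4 and MYL7, both given above and both used by cardiac muscle, were the other 2.

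Markers of epithelium and gut endoderm varied between the wells of a group. Their summed level was 214 to 481 CPM in CTRL and 622 to 1295 CPM in IND, with CTRL replicate 3 the highest CTRL library and IND replicate 2 the highest IND library. EPCAM, an epithelial adhesion molecule, was at 28.8, 25.9 and 67.3 CPM in CTRL and 92.7, 252 and 148 CPM in IND. SOX17, a factor of definitive endoderm and of endothelium, was at 12.3, 11.9 and 30.4 CPM and 46.8, 131 and 71.5 CPM, and FOXA2, a forkhead factor of endoderm, at 9.50, 6.07 and 21.3 CPM and 35.8, 111 and 57.4 CPM. The groups did not overlap in these 3 genes, as in 14.8% of all genes tested with IND higher. The spread within a group was wide, and none passed with all 6 libraries (adjusted p = 0.116, 0.106 and 0.11). Of 18 tested, none passed with all 6 libraries, although the median log2 fold change was 1.44 (1.496 without IND replicate 2). Without IND replicate 2, 1 of 19 rose and 1 fell (5.26% each, against 8.74% and 9.51% of all genes). Whether such cells had a part in the rises of other genes was not tested.

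Part of the interferon-stimulated genes rose in IND. Of 39 tested, 4 rose, none fell and 35 were not called with all 6 libraries (10.3% against 0.856% of all genes), and 24 of 42 rose and 3 fell without IND replicate 2 (57.1% against 8.74% for the rises). OAS3, which senses double-stranded RNA, was at 0.224, 0.231 and 0.202 CPM in CTRL and 1.499, 3.01 and 2.15 CPM in IND (3.32 ± 0.463, adjusted p = 0.0222). IFIT3, an antiviral effector, was at 0.834, 0.416 and 0.748 CPM and 4.89, 2.70 and 5.21 CPM (2.68 ± 0.424), and GBP2, an interferon-inducible GTPase, at 1.16, 1.02 and 1.33 CPM and 8.60, 4.20 and 8.19 CPM (2.58 ± 0.347). PARP9, an ADP-ribosyltransferase, rose by 1.10 ± 0.191. The levels were low. No IND library overlapped CTRL in these 4 genes, but the same held, with IND higher, in 14.8% of all genes tested. The 4 were named because they were called, so the lack of overlap adds no support.

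TLR3, the endosomal receptor of double-stranded RNA, was at 0.346, 0.277 and 0.303 CPM in CTRL and 3.50, 0.354 and 3.37 CPM in IND, so that IND replicate 2 lay near the CTRL level and the gene passed only without it (3.46 ± 0.266, adjusted p = 1.35e-06). The 3 members that fell without IND replicate 2 were the membrane proteins IFITM1 (-0.46 ± 0.0992), IFITM2 (-0.50 ± 0.0730) and IFITM3 (-0.40 ± 0.0686), which block viral entry. IFITM3 was at 327, 297 and 320.1 CPM and 234, 91.9 and 245 CPM, and IND replicate 2 had the lowest level of all 3 genes.

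The log2 fold change of all 14 genes of MHC class I antigen presentation tested was positive with all 6 libraries. Of the 14, 4 rose and none fell (28.6% against 0.856% of all genes), and 11 of 16 rose and none fell without IND replicate 2 (68.8% against 8.74%). PSMB8 is given above. TAP2, a subunit of the peptide transporter, was at 2.08, 1.85 and 2.45 CPM in CTRL and 4.83, 6.68 and 5.28 CPM in IND (1.39 ± 0.251, adjusted p = 0.0481). TAPBP, the chaperone tapasin, was at 25.5, 21.2 and 25.1 CPM and 48.1, 57.1 and 44.7 CPM (1.06 ± 0.149, adjusted p = 0.0231). HLA-E, a class I molecule that natural killer cells read, rose by 0.59 ± 0.104, though reads of related class I genes may be split between copies. TAP1, the partner of TAP2, was at 0.509, 0.646 and 1.92 CPM and 7.79, 3.23 and 6.66 CPM and passed only without IND replicate 2 (2.80 ± 0.524). PSMB9, another immunoproteasome subunit, was at 0, 0 and 0.101 CPM in CTRL and 1.69, 0 and 1.49 CPM in IND, and passed the filter on low counts only without IND replicate 2, where it rose (5.40 ± 0.688).

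The promoters of these genes are shown because a short motif recurs in them. The letters GAAA, then 2 bases of any kind, then GAAA again, which interferon-stimulated response elements contain, were searched on both strands in RefSeq windows of 300 bases (250 before to 50 after each start, GRCh38.p14). Of all 35116 windows, 1255 held a match (3.57%). Of the interferon list, 26 of 35 genes with a window held one, and of the MHC class I list, 9 of 13. Of the genes that rose with all 6 libraries and also without IND replicate 2, 13 of 120 with a window held it (10.8%), against 2 of 167 of those that fell (1.20%) and 489 of 12654 of all tested (3.86%). Below are the 250 bases before the start of 4 genes that rose, 5′ to 3′ on the strand of the gene, with each match in capitals. Only windows that held a match, with every match before the start, could be shown. Another such window of IFIT3, with matches 94 and 51 bases before its start, and that of PARP9 are not shown. TTTC, 2 bases and TTTC in capitals are the same motif on the other strand.
OAS3 (chr12:112938224-112938473, plus strand): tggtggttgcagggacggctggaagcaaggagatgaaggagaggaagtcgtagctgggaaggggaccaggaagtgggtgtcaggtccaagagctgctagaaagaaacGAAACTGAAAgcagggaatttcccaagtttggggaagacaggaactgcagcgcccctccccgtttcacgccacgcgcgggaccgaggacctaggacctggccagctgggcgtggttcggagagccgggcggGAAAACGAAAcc
IFIT3 (chr10:89327747-89327996, plus strand): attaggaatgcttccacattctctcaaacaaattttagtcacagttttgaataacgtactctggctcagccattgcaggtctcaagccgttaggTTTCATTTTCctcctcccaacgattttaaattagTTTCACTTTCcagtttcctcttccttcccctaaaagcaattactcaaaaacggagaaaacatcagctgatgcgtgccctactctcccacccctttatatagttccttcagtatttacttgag
TAP2 (chr6:32838740-32838989, minus strand): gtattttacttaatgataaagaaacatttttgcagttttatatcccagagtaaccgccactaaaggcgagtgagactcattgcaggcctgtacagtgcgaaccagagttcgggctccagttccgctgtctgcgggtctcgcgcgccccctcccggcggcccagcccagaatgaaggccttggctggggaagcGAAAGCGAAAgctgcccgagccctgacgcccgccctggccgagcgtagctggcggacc
TAPBP (chr6:33314079-33314328, minus strand): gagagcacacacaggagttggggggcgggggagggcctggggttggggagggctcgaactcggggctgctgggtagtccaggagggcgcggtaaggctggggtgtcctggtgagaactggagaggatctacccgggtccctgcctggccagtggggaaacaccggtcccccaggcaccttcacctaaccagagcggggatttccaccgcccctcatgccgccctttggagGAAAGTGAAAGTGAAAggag
The matches began 143 and 12 bases before the start in OAS3, 156 and 122 in the IFIT3 window shown, 58 in TAP2, and 20 and 14 in TAPBP, where the 2 overlap. A match describes letters in these windows and is not a measured binding site. The letters TGTTTAC, a core bound by forkhead factors, were in 3.42% of windows, in 4 of 120 promoters of genes that rose (3.33%), in 5 of 167 of those that fell (2.99%) and in 459 of 12654 of all tested (3.63%).

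**Figure D3:**
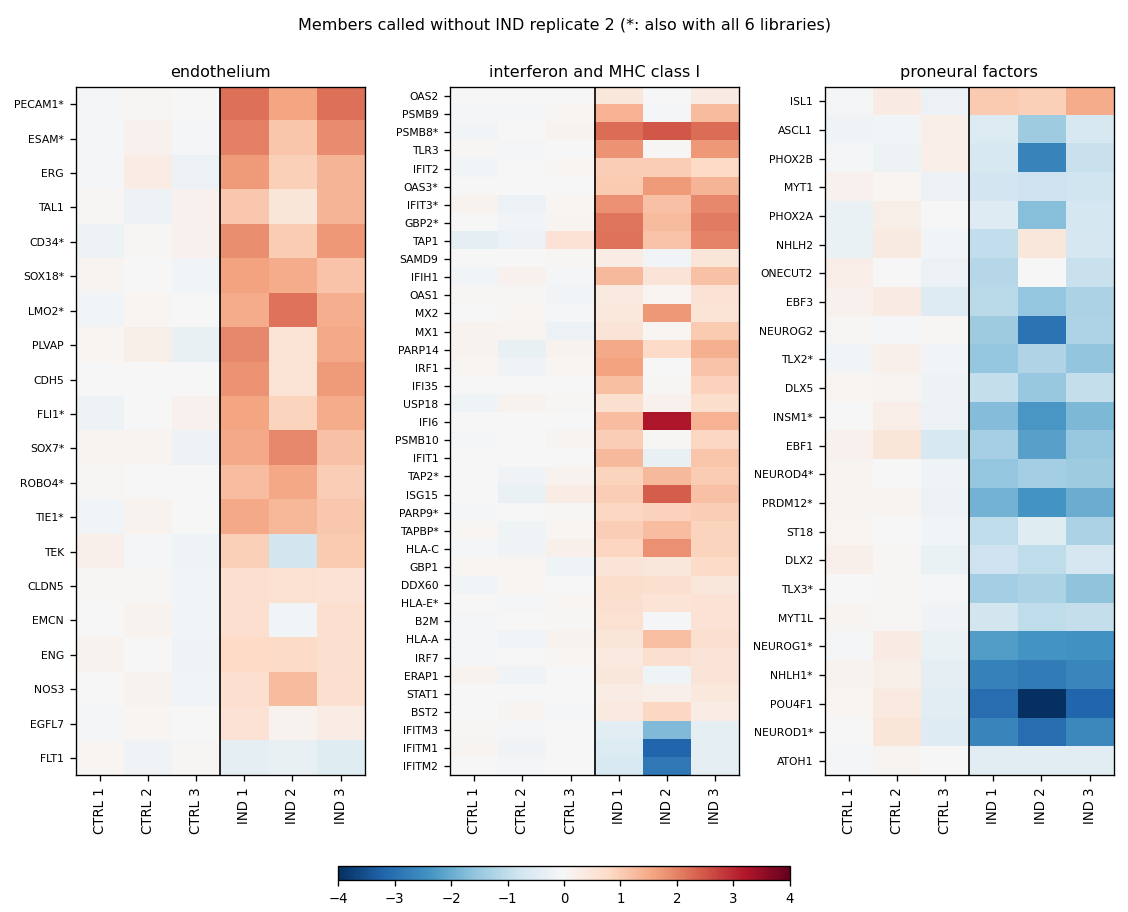
Level of each gene in each library as log2(CPM + 1) minus the mean of the 3 CTRL libraries, for the members shown of the endothelial, interferon and MHC class I, and proneural lists, which passed without IND replicate 2 (asterisk: also with all 6 libraries). The IND columns are mostly red in the first 2 maps and mostly blue in the third, and IND replicate 2 departs from its neighbours in single genes such as TEK, TLR3 and the IFITM genes.

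Of 58 WNT genes tested, 4 rose and 2 fell with all 6 libraries (6.90% and 3.45% against 0.856% and 1.18% of all genes), and 14 rose and 17 fell without IND replicate 2 (24.1% and 29.3% against 8.74% and 9.51%). The same shares of all genes apply to the lists that follow. RSPO2, a secreted activator of the pathway, rose from 4.13, 3.99 and 6.06 CPM to 13.8, 20.6 and 18.3 CPM (1.89 ± 0.251), and LGR4, a receptor for R-spondins, from 149, 133 and 140.0 CPM to 207, 219 and 224 CPM (0.62 ± 0.0997), beside SFRP4 and FZD7 above. WNT2B, a ligand of mesothelium and mesenchyme, fell from 99.1, 96.6 and 79.6 CPM to 17.9, 19.3 and 17.3 CPM (-2.34 ± 0.135, adjusted p = 0.00178). SFRP5, a secreted inhibitor, fell from 204, 173 and 177 CPM to 92.8, 112 and 104 CPM (-0.84 ± 0.122). The list's median log2 fold change was -0.07.

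Of 57 genes of TGF-beta, activin and BMP signalling, 1 rose and 4 fell with all 6 libraries (1.75% and 7.02%), and 10 of 58 rose and 17 fell without IND replicate 2 (17.2% and 29.3%). GDF7, a BMP ligand, fell from 110.4, 104 and 86.2 CPM to 31.3, 21.2 and 25.6 CPM (-1.94 ± 0.183, adjusted p = 0.00808). GREM1, a secreted BMP antagonist, fell from 31.5, 25.1 and 29.0 CPM to 9.79, 8.80 and 10.6 CPM (-1.55 ± 0.156). INHBE (-1.53 ± 0.259) and INHBA, subunits of activins, were the other 2 that fell. Of 23 retinoic acid genes, RARRES3 rose (4.35%). RXRG (-1.30 ± 0.215), a retinoid X receptor, and RDH10 (-0.69 ± 0.108), which makes retinal from retinol, fell (8.70%). Without IND replicate 2, 6 rose and 5 fell (26.1% and 21.7%). RDH10 was at 66.5, 66.6 and 59.6 CPM in CTRL and 40.4, 40.2 and 38.8 CPM in IND.

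Of 18 Hedgehog genes, HHIP alone passed with all 6 libraries (5.56%), and 6 of 19 rose and 3 fell without IND replicate 2 (31.6% and 15.8%). PTCH1, the receptor and a target of the pathway, was at 135, 99.3 and 125 CPM and 213, 187 and 201 CPM (0.79 ± 0.113 without IND replicate 2, adjusted p = 0.0592 with it). Of 27 Notch genes, NOTCH4 alone passed (3.70%), and 6 of 28 rose and 7 fell without IND replicate 2 (21.4% and 25.0%). Of 35 FGF and PDGF genes, FGF18 (-1.10 ± 0.189) and PDGFRA (-0.78 ± 0.131) fell (5.71%). Without IND replicate 2, 5 of 36 rose and 5 fell (13.9% each). PDGFRA, a receptor of mesenchyme, was at 462, 425 and 407 CPM in CTRL and 279, 215 and 259 CPM in IND. Of 16 genes of the IGF axis, PAPPA, a protease that frees IGF from its binding proteins, alone passed (6.25%). It fell from 86.1, 72.3 and 76.9 CPM to 37.0, 19.2 and 32.96 CPM (-1.40 ± 0.247). Without IND replicate 2, 4 rose and 2 fell (25.0% and 12.5%).

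In the matrix, single chains changed in both directions. Of 42 collagen chains, 1 rose and 3 fell with all 6 libraries (2.38% and 7.14% against 0.856% and 1.18% of all genes), and 9 of 43 rose and 15 fell without IND replicate 2 (20.9% and 34.9% against 8.74% and 9.51%). COL16A1, a fibril-associated collagen, fell from 56.9, 55.8 and 47.2 CPM to 11.4, 14.6 and 12.5 CPM (-2.06 ± 0.153, adjusted p = 0.00435). COL22A1 (-1.84 ± 0.226) and COL6A6 (-1.51 ± 0.161) also fell, and COL12A1 (1.26 ± 0.213) rose. COL1A1, the main chain of fibrillar collagen I, was at 6108, 5983 and 5548 CPM in CTRL and 4640.2, 18057 and 3817 CPM in IND, and its direction depended on IND replicate 2, with a log2 fold change of 0.59 with it (adjusted p = 0.634) and -0.48 without it (adjusted p = 0.00233). The list's median was 0.36 with that library and -0.16 without it.

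Of 9 small leucine-rich proteoglycans, PRELP rose from 10.6, 7.96 and 9.28 CPM to 47.6, 24.4 and 41.7 CPM (2.03 ± 0.275). DCN, decorin, fell from 454, 533 and 494 CPM to 249.3, 143 and 237 CPM (-1.24 ± 0.222). These were 11.1% each, and 2 rose and 2 fell without IND replicate 2 (22.2% each). Of 35 matrix proteases and inhibitors, 3 rose and 2 fell, all of them ADAMTS proteases (8.57% and 5.71%), and 8 rose and 10 fell without IND replicate 2 (22.9% and 28.6%). ADAMTS16 rose from 3.54, 2.42 and 4.51 CPM to 20.6, 26.1 and 22.1 CPM (2.71 ± 0.263, adjusted p = 0.0085). ADAMTS20 (1.30 ± 0.226) and ADAMTS1 rose, and ADAMTS9 (-1.03 ± 0.150) and ADAMTS2 (-0.84 ± 0.152), a procollagen peptidase, fell.

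Of 31 integrins and laminins, 2 rose and 2 fell (6.45% each), and 8 of 32 rose and 9 fell without IND replicate 2 (25.0% and 28.1%). ITGA3, a laminin-binding integrin chain of epithelia, fell from 296, 308 and 266 CPM to 54.3, 91.9 and 54.5 CPM (-2.12 ± 0.233, adjusted p = 0.012), and ITGA8, the nephronectin receptor chain, fell too (-1.01 ± 0.123). ITGA9 (1.11 ± 0.148) and LAMB1 (0.63 ± 0.115) rose. Of 31 cadherins and protocadherins, CDH13 (1.42 ± 0.251) and PCDH19 (1.23 ± 0.212) rose and CDH18 (-2.11 ± 0.307) fell (6.45% and 3.23%), and 12 rose and 3 fell without IND replicate 2 (38.7% and 9.68%). Of 8 caveolins and cavins, CAVIN1, a coat protein of caveolae, alone passed (12.5%). It fell from 187, 189.6 and 185 CPM to 78.1, 93.6 and 80.8 CPM (-1.15 ± 0.110). Without IND replicate 2, 3 rose and 2 fell (37.5% and 25.0%). Of 46 genes of complement and coagulation, 1 rose (C7) and 1 fell with all 6 libraries (2.17% each). Without IND replicate 2, 14 rose and 9 fell (30.4% and 19.6%).

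Positional factors gave a mixed picture. Of 16 T-box and Iroquois factors, TBX4, a limb and lung factor, rose from 1.65, 1.87 and 1.35 CPM to 8.31, 8.05 and 6.45 CPM (2.23 ± 0.243), and TBX18, a factor of urogenital and epicardial mesenchyme, fell from 132, 121 and 122 CPM to 24.6, 26.4 and 24.9 CPM (-2.30 ± 0.105, adjusted p = 0.000973). That was 6.25% each way (against 0.856% and 1.18% of all genes). Without IND replicate 2, 5 of 17 rose and 5 fell (29.4% each, against 8.74% and 9.51% of all genes). Of 33 forkhead genes other than FOXL2, 1 rose (3.03%) and none fell, and 6 rose and 6 fell without IND replicate 2 (18.2% each). No HOX gene passed with all 6 libraries, whereas 14 of 26 fell and none rose without IND replicate 2 (53.8% against 9.51% of all genes), with medians of -1.29 and -0.96. HOXC8 was at 4.46, 5.22 and 4.49 CPM in CTRL and 1.02, 0 and 0.517 CPM in IND (-2.62 ± 0.273 without IND replicate 2), and HOXB8 at 29.1, 33.6 and 24.1 CPM and 12.3, 0.531 and 7.68 CPM (-1.53 ± 0.238). In both, IND replicate 2 was lower still than the other IND wells.

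Of 28 genes of the integrated stress response and amino acid synthesis, 4 fell and none rose with all 6 libraries (14.3% against 1.18% of all genes), and 16 fell and none rose without IND replicate 2 (57.1% against 9.51%). SLC7A1, a transporter of cationic amino acids, fell from 92.7, 90.7 and 80.1 CPM to 42.7, 36.0 and 45.0 CPM (-1.09 ± 0.132). SHMT2 (-0.89 ± 0.111) and MTHFD2 (-0.91 ± 0.149), enzymes of mitochondrial one-carbon metabolism, fell too, beside SLC7A5. MTHFD2 was at 156, 173 and 174 CPM in CTRL and 97.4, 72.0 and 98.3 CPM in IND. Of 61 genes of the cell cycle, CDKN2B, an inhibitor of cyclin-dependent kinases, alone fell (1.64%), from 35.3, 31.97 and 33.7 CPM to 5.52, 12.2 and 7.59 CPM (-2.01 ± 0.292). Without IND replicate 2, 4 rose and 13 fell (6.56% and 21.3% against 8.74% and 9.51% of all genes).

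**Figure D4:**
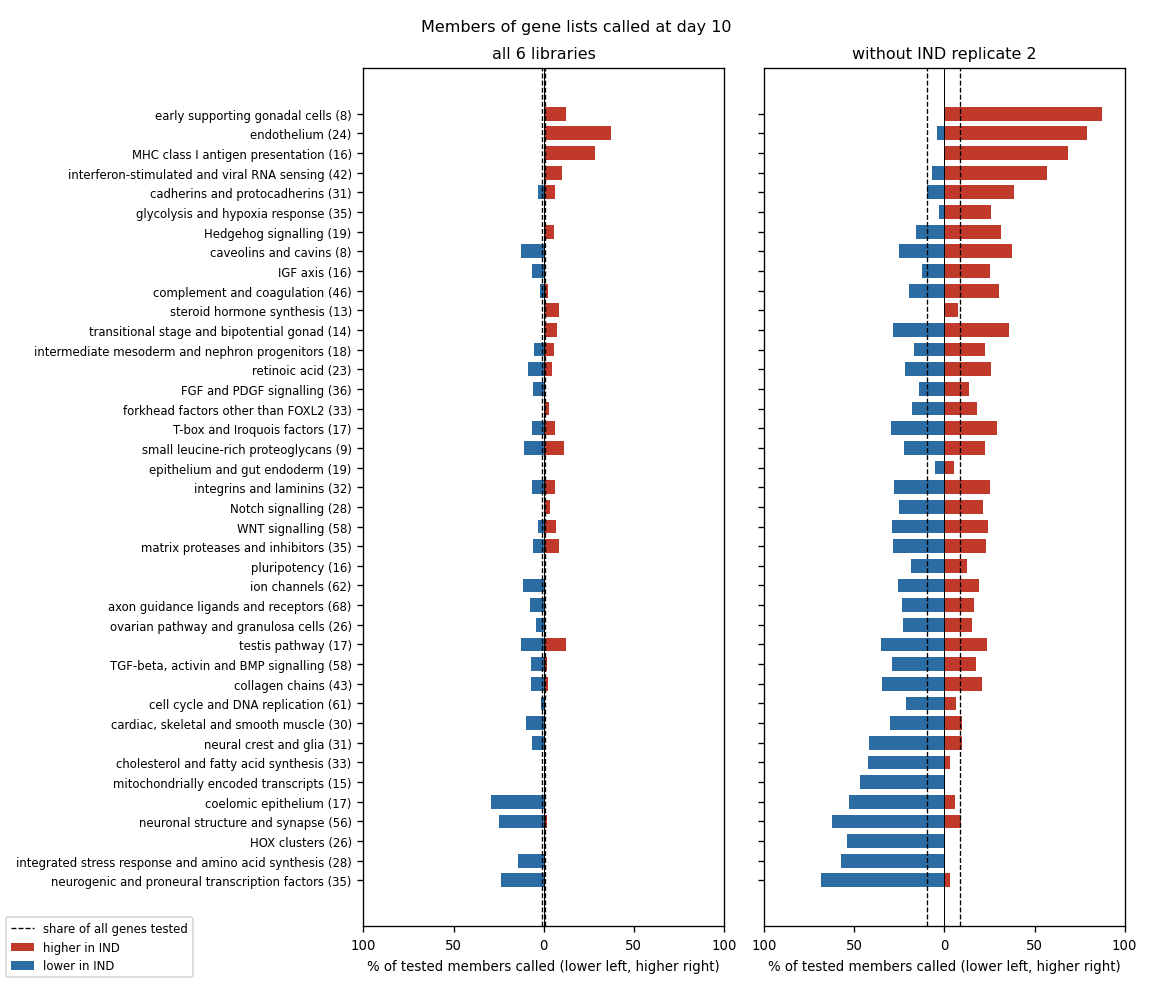
Share of tested members called higher (right) or lower (left) in IND, for the 40 gene lists other than the FOXL2 locus with at least 5 members tested, with all 6 libraries and without IND replicate 2, with the number tested in the second comparison in brackets. Dashed lines mark the share of all genes called in each direction. Without IND replicate 2, the endothelial, MHC class I, interferon and ESGC bars reach furthest to the right. The proneural, stress response, HOX and neuronal bars reach furthest to the left there. With all 6 libraries, the endothelial and MHC class I bars reach furthest right, and the coelomic epithelial, neuronal and proneural bars furthest left.

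The lists of glycolysis, cholesterol synthesis, mitochondrially encoded transcripts and pluripotency had no call with all 6 libraries. Of 35 genes of glycolysis and the hypoxia response, 9 rose and 1 fell without IND replicate 2 (25.7% and 2.86% against 8.74% and 9.51% of all genes). SLC2A3, a glucose transporter, was at 127, 103 and 225 CPM in CTRL and 280.1, 466 and 483 CPM in IND, with CTRL replicate 3 well above the other 2, and passed in neither comparison (adjusted p = 0.11 and 0.21). Of 33 genes of cholesterol and fatty acid synthesis, 1 rose and 14 fell without IND replicate 2 (3.03% and 42.4%). Of the 15 mitochondrially encoded transcripts none rose and 7 fell (46.7%). The last summed to 30474 to 32496 CPM in CTRL, 24134 and 25605 CPM in IND replicates 1 and 3 and 7226 CPM in IND replicate 2. Of 16 pluripotency genes, 2 rose, among them KLF4 (2.17 ± 0.478), and 3 fell, among them UTF1 (-2.16 ± 0.291), in the same comparison. These were 12.5% and 18.75%, against 8.74% and 9.51% of all genes.

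The genes that passed only without IND replicate 2 differed in where that library lay. In 2410 of the 3364 (71.6%), IND replicate 2 lay beyond the CTRL libraries on the same side as the other IND wells, and in 3179 the log2 fold change with all 6 libraries had the same sign. IGFBP7, a secreted IGF-binding protein, was at 4.42, 4.04 and 5.76 CPM in CTRL and 33.01, 543 and 57.7 CPM in IND, so that IND replicate 2 was on the same side but far higher (3.25 ± 0.299 without it). In 310 genes IND replicate 2 had no count, and for a gene that fell, such as KLK5 (5.96, 6.07 and 4.12 CPM and 0.396, 0 and 0.455 CPM) or HAS1, a hyaluronan synthase (7.73, 10.3 and 8.67 CPM and 1.15, 0 and 0.931 CPM), that lay on the side of the change. KLK5, a serine protease, differed by -3.66 ± 0.274 and HAS1 by -3.10 ± 0.207 without that library.

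In other genes IND replicate 2 lay at or near the CTRL level. HRK, a pro-apoptotic BH3-only protein, was at 3.17, 3.65 and 2.73 CPM in CTRL and 0.104, 2.30 and 0.166 CPM in IND (-4.54 ± 0.345 without IND replicate 2). SLCO2B1, an organic anion transporter, was at 1.14, 0.600 and 1.496 CPM and 8.41, 1.19 and 6.39 CPM (2.76 ± 0.288). MEOX2, a homeobox factor of vascular and somitic mesoderm, was at 0.855, 0.762 and 0.424 CPM and 4.85, 1.55 and 4.18 CPM (2.73 ± 0.271), and ADGRF5, an adhesion receptor of endothelium, at 0.488, 0.946 and 0.970 CPM and 5.79, 1.81 and 4.39 CPM (2.66 ± 0.275), with IND replicate 2 between the groups.

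The effect of induction at day 10 was set against that at day 8 and day 12, each with its own CTRL wells, by an interaction term. With all libraries 1 of 20947 genes differed between day 10 and day 8 (0.00477%), and 0 of 21096 between day 10 and day 12 (0.0%, edgeR), where 694 and 670 genes had an unadjusted p under 0.05 and DESeq2 called 22 and 3. The gene was SST, the peptide hormone somatostatin. It was at 7.57 to 8.06 CPM in CTRL and 40.7 to 54.6 CPM in IND at day 8, and at 24.8 to 42.1 CPM in CTRL and 18.4 to 25.5 CPM in IND at day 10. Its log2 fold change was 2.67 at day 8 and -0.60 at day 10, a difference of -3.27 ± 0.289 (adjusted p = 0.00226). Without day 10 IND replicate 2, 17 of 21616 genes differed from day 8 (0.0786%), 11 with a higher effect at day 10 and 6 with a lower one, and 0 of 21767 differed from day 12 (998 with an unadjusted p under 0.05), where DESeq2 called 139 and 17.

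Several genes named above can be followed to the neighbouring days. C7 had a log2 fold change of 5.13 at day 8 and 4.77 at day 12, TBX18 of -2.60 and -2.30, WT1 of -2.32 and -1.60, OSR1 of 2.30 and 2.09, and PSMB8 of 3.30 and 3.03. PECAM1 stood at 0.99 at day 8 and 1.76 at day 12, and its effect was 1.504 ± 0.252 larger at day 10 than at day 8 without IND replicate 2 (adjusted p = 0.0352). EDN3, the peptide endothelin 3, had no called change at day 8 (log2 fold change -0.13) and rose at day 10 from 7.57, 6.95 and 7.22 CPM to 22.6, 15.3 and 25.5 CPM (1.55 ± 0.217, adjusted p = 0.0234). HOPX, a homeodomain protein without DNA binding, rose from 0.326, 0.646 and 0.647 CPM to 5.93, 3.45 and 6.12 CPM at day 10 (3.26 ± 0.416), and its effect was 2.24 ± 0.367 larger than at day 8 without IND replicate 2 (adjusted p = 0.0275).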

How the data were processed

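Cells of 1 differentiation were lysed in 12-well plates, 3 technical replicates per group, and poly(A) RNA was sequenced from non-directional libraries. Per the submitters' processing notes, reads were cleaned with fastp 0.23.2, mapped to GRCh38 with HISAT2 2.0.5 and counted per gene with featureCounts 1.5.0-p3. The authors deposited counts per gene, which were tested here, and FPKM values, which were used for levels across genes and as an alternative scale. The table held 58735 genes, of which 35767 had a count in the 6 libraries, and 0 columns of per-sample values were left unmapped. Depth was 23940837 to 49562327 counts per library, and intervals and floors (3 counts) cover counting error only.

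IND and CTRL were compared with edgeR 4.0.16 in R 4.3.3 (TMM scaling, filterByExpr, robust quasi-likelihood F test, Benjamini-Hochberg adjustment over all genes tested, threshold 0.05), with and without IND replicate 2. CPM used TMM-scaled library sizes. Interaction terms came from fits over the 12 libraries of both days. Alternatives were DESeq2 1.42.0 (the tool the study used), limma 3.58.1 on log2(FPKM + 1) or with voom quality weights, other scalings and filters, a fit over all 33 libraries, the replicate number as a block and libraries left out. The alternatives within the 5-library comparison were added after the data were seen. On simulated data, edgeR, DESeq2, voom and limma were checked with and without IND replicate 2, the block with all 6 libraries and the interaction without IND replicate 2. DESeq2 made more false calls there than edgeR. In the day 10 comparison without IND replicate 2, every tool exceeded the nominal share of false calls. The interaction did so against day 8 (8.76%) but not against day 12 (4.14%). Simulated libraries shared 1 mean per gene apart from the changed genes, so no library of low complexity was simulated.

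The genes named were the FOXL2 locus, the 15 largest changes per direction (average log2 CPM of at least 1) and the 10 per direction with the highest mean FPKM (absolute log2 fold change of at least 1) among genes that passed with and without IND replicate 2 and did not overlap between groups, up to 3 per direction from each of 42 gene lists, any member of the gonadal lists, and up to 5 per direction that passed in only 1 of the comparisons or differed between days. Other genes, such as COL1A1, EPCAM, SOX17, FOXA2, TEK, TLR3, HOXB8, SLC2A3, EDN3 and HOPX, were named after their values were seen. Some genes that met the rule are not reported here, and no other gene took their place. The comparison and the lists were chosen with earlier results of these data known.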

Additional observations from a re-analysis of the deposited data

Results flagged for a closer look

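Each value here is the log2 fold change of IND against CTRL at day 10 minus that at day 8, for genes whose interaction term passed an adjusted p of 0.05. SST stood at -3.27 with all libraries and at -3.18 without day 10 IND replicate 2. Without that library further genes passed. The difference was positive at 2.24 for HOPX, 1.87 for EDN3, 1.75 for CNTN5, 1.504 for PECAM1, 1.46 for LAMP5, 1.06 for FILIP1, 0.96 for PCDH18, 0.90 for NID2, 0.73 for NRP1, 0.66 for MOXD1 and 0.64 for ITGA9. It was negative at -1.62 for RAMP1, -0.98 for THSD4, -0.97 for MBNL3 and -0.65 for PRICKLE1. A positive difference can come from a smaller fall, as in NID2, which had a log2 fold change of -1.16 at day 8 and -0.27 at day 10. Groups of 3 libraries were not searched for single outlying samples.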

How the results depend on the processing

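The number of genes called at day 10 (404, of which 170 higher and 234 lower) depended strongly on the tool and on single libraries, and the cause was not tested. DESeq2 called 1787 genes (1032 higher, 755 lower), a fit over all 33 libraries 3325 (2037 and 1288), voom with quality weights, in which IND replicate 2 had a weight of 0.0507 against 1.14 to 2.503, 4252 (2120 and 2132), and limma on log2(FPKM + 1) 264 (70 higher). Leaving out 1 library gave 11 to 3768 genes called, 5 to 1804 higher and 6 to 1964 lower, and leaving out replicate 2 of both groups gave 2882 (1339 and 1543). RLE size factors, library totals, other filters on low counts and a minimum log2 fold change of 1 kept the count within 1.5 times. Without IND replicate 2, and as alternatives chosen after seeing the data, DESeq2 called 3747 genes, limma on FPKM 2197 and a fit over the other 32 libraries 1688, against 3768, and leaving out IND replicate 3 as well gave 2234.

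With the replicate number as a replicate block, 15 genes passed (6 higher, 9 lower) and 0 differed between day 10 and day 8. Same-numbered wells shared little, with correlations of their deviations of 0.0595, -0.0204 and 0.118. These deviations were taken from group means that include IND replicate 2, so they cannot decide whether the numbers mark pairs. The numbers were not taken as pairs in the main comparison. Without IND replicate 2, an alternative added after the data were seen, the block gave 5215 genes against 3768 without a block. The count of genes that differed between day 10 and day 8 (1) was 22 with DESeq2, 2 with no filter on low counts, 2 in the fit over all 33 libraries and 1 to 17 with 1 library left out, and DESeq2 called 3 between day 10 and day 12, where leaving out any library gave 0. Without day 10 IND replicate 2, DESeq2 called 139 genes against day 8 and 17 against day 12, where edgeR called 17 and 0.

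Of the 131 genes named in the text that were called, all 131 kept the call with DESeq2 and in the fit over all 33 libraries. Fewer kept it elsewhere, 88 with limma on FPKM, 13 with the block and 9 to 38 with any other library left out. All 131 also kept it without IND replicate 2 and with voom, but neither adds support. The former was fixed in advance, as all 404 genes called passed without that library, and voom gave it a weight of only 0.0507. FOXL2 was called under every alternative of the 17 tried (highest adjusted p 0.00468). COL1A1 reversed, from 0.59 to -0.40 with voom and -0.47 without replicate 2 of both groups, and ranged from -0.48 (without IND replicate 2) to 0.92 (without IND replicate 3) with 1 library left out. At the depth of these libraries, genes with a few counts, such as WNT6, could not be compared firmly.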
